A study of Mus musculus with 2 samples.

Results

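Lysosome and cathepsin genes were followed in macrophages sorted from the mouse small intestine, in wild-type mice and in mice lacking Ccr2, the chemokine receptor that carries monocytes from blood into tissue. The 27998 genes of the deposited matrices include all 34 genes of the list, which is a set of named genes with no threshold on their values. It holds 10 peptidases, 8 membrane proteins, 5 lipid-handling and saposin-type lumen proteins, 5 glycosidases, 5 proton pump genes and 1 regulator, Tfeb. Cells were used if they had 200 or more genes and no more than 10% mitochondrial UMIs (unique molecular identifiers, one per captured transcript end).

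The wild-type library came from male C57BL/6J mice from Janvier, and the Ccr2-/- library from mice of JAX strain #:004999, bred in-house and of unstated sex, so genotype, mouse source and library were the same split and cannot be told apart. Guts of 3 to 4 mice were pooled for each library, which hides the spread between animals. After enzymatic digestion with Liberase TL, live CD45+ CD11b+ MHCII+ CD64+ cells negative for CD3, TCRb, B220, SiglecF, Ly6C and Ly6G were sorted and run on the 10x Genomics 3′ v2 platform. The wild-type cells were run on 2 lanes, which are technical parts of 1 sample, and the age of the mice is not in the sources used here. With 1 library per genotype there is no test between genotypes, and every interval given is a 95% interval that covers counting error only.

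Lysosomes are acidic compartments in which macrophages break down what they have taken up. A proton pump in their membrane, the V-type ATPase, acidifies the lumen, where cathepsins and other hydrolases work, and heavily glycosylated membrane proteins line the wall. Gut macrophages take up large amounts of dying cells and microbial material, and cathepsins also trim antigens and the invariant chain for presentation on MHC class II.

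The filter kept 3016 of 3054 wild-type cells (2109 in lane 1 and 907 in lane 2) and 2612 of 2774 knockout cells. The libraries differed in depth, with medians of 6129 UMIs per wild-type cell and 2439 UMIs per knockout cell, and in total 20678108 and 7265386 UMIs. Ccr2 itself was at 347 and 293 UMIs in 1000000 (CPM) in the wild-type lanes and at 6.88 CPM in the knockout. The 8 macrophage markers were all found in both libraries, at 14605 CPM in wild type and 11596 CPM in the knockout in sum. That sum holds genes of both directions, with knockout to wild-type log2 ratios from -1.33 for C1qb to 1.43 for Mertk. Some other summed lists differed more. Monocyte markers, which include Ccr2 at 331 and 6.88 CPM, stood at 709 and 195 CPM. Fibroblast markers stood at 26.1 and 232 CPM and endothelial markers at 51.9 and 182 CPM. Dissociation stress genes were at 6151 and 20777 CPM in sum, though Hspa1a (643 and 197 CPM) and Hspa1b (216 and 144 CPM) were lower in the knockout. Erythroid markers were at 1078 and 3.44 CPM in the lanes against 7429 CPM in the knockout. The lanes shared 5 cell barcodes, and the knockout shared 6 with lane 1 and 0 with lane 2. The part of depth, stress and the other cell types in the differences below was not tested, except where a value with matched cells is given.

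The list includes Tfeb, the transcription factor that drives many lysosome genes through an E-box element in their promoters, and the sites with that motif are shown because they are the feature of sequence that some members share. The motif TCACGTGA, which is its own reverse complement and contains the shorter CACGTG, was searched on both strands in the RefSeq promoter windows of build GRCm38.p6, each with 250 bases before and 50 bases after a start site. Windows were given for 30 of the members. The capitals mark the motif in the strand of the gene:
Ctsa, upstream copy: gcaaactgTCACGTGAtgcagatg
Ctsa, downstream copy: gcagatgcTCACGTGAccagagct
Ctsd: cccgcgtcTCACGTGAcccgttga
Mcoln1: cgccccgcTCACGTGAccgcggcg
Atp6v0d1: tactgcggTCACGTGAgacgcggt
Atp6v1a: tttttaaaTCACGTGAtaggctta
The Ctsa stretches lie at chr2:164833752-164833775 and chr2:164833769-164833792 on the plus strand and overlap, and that of Mcoln1 at chr8:3500465-3500488 on the plus strand. Those of Ctsd (chr7:142387911-142387934), Atp6v0d1 (chr8:105566053-105566076) and Atp6v1a (chr16:44139376-44139399) are on the minus strand.

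The full motif was thus in 5 of 30 member promoters (16.7%), against 2.69% of 5717 genes of the comparison with a window and 1.12% of all 27025 genes with one. The shorter CACGTG was in 10 member promoters (33.3%), against 12.8% and 8.09%. By role, the full motif was in 2 of 8 peptidase promoters, 2 of 4 pump promoters and 1 of 7 membrane protein promoters, and in none of the glycosidase or lipid-handling ones. Between the libraries these genes differed among themselves. Their knockout to wild-type log2 ratios were 0.89 for Atp6v1a, 0.71 for Mcoln1, 0.51 for Ctsd, 0.24 for Ctsa and -0.09 for Atp6v0d1.

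Members made up 1.87% of all UMIs in lane 1, 2.09% in lane 2 and 2.23% in the knockout, above both lanes. The order turned with depth: in cells with 1000 to 2000 UMIs the share was 2.41% and 2.39% in the lanes and 2.80% in the knockout, with 2000 to 4000 UMIs 2.23%, 2.30% and 2.37%, and with 4000 to 8000 UMIs 1.96%, 2.20% and 1.88%. With 8000 to 16000 UMIs, where the knockout had 17 cells, it was 1.80%, 2.03% and 1.01%. Among cells the share ran, from the 10th to the 90th percentile, from 1.28% to 3.04% in wild type around a median of 1.93%, and from 1.12% to 4.05% around 2.26% in the knockout. Lymphoid cells served as a background. They had at least 3 UMIs of T and B cell markers and Mzb1, and more of these than of the C1q genes. This gate was widened after the data were seen because the narrower one held only 5 wild-type cells. In the 24 wild-type and 28 knockout cells of the wider gate, members were 0.370% and 0.308% of UMIs. These shares cannot tell free RNA apart from transcripts of the lymphoid cells themselves or of doublets, since the gate allows C1q UMIs. Cells with at least 3 C1q UMIs and fewer than 3 of T, B, plasma cell, fibroblast and endothelial markers, called macrophage-gated below, had 1.95% and 2.38%.

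**Figure D1:**
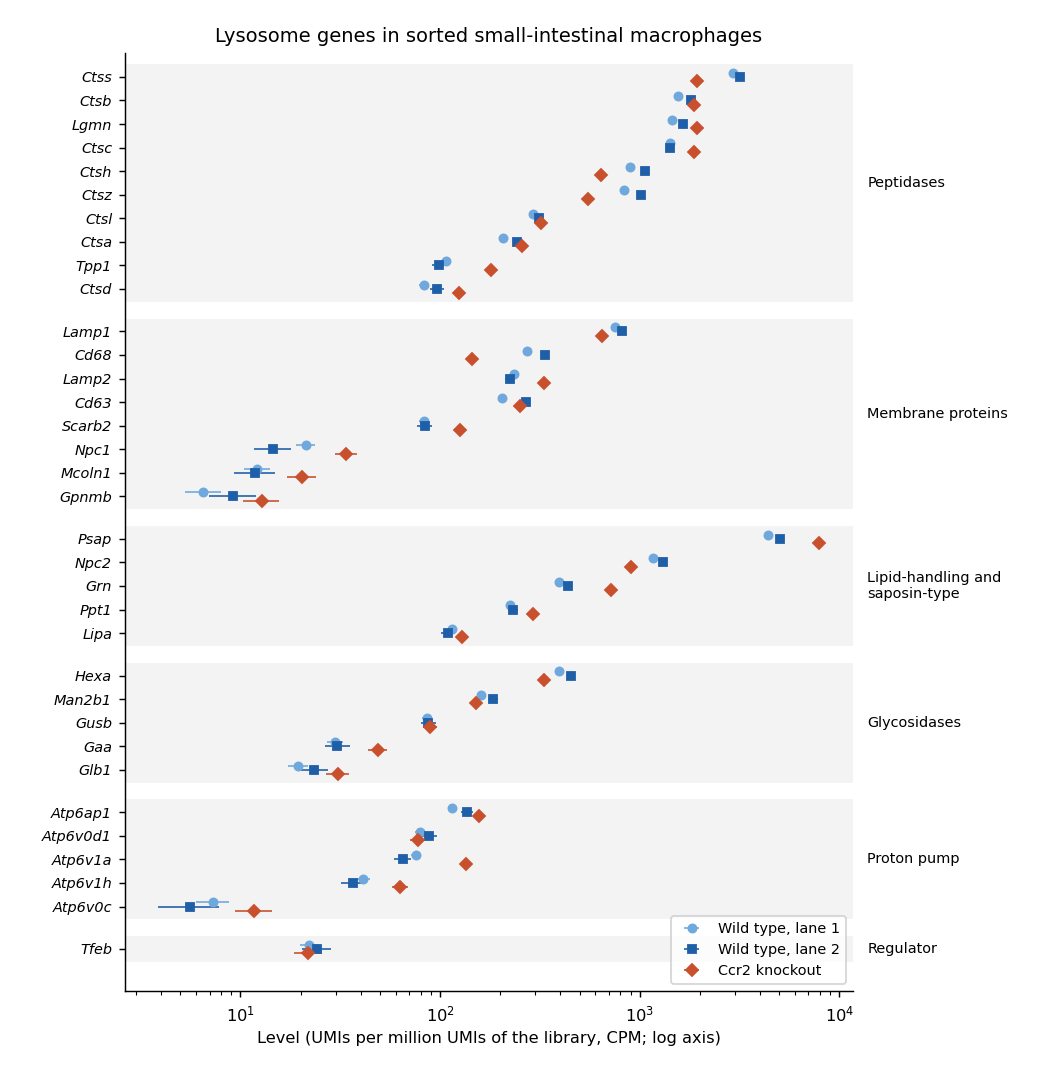
Level of each of the 34 members, in CPM on a log axis, in wild-type lane 1 (light circles), lane 2 (dark squares) and the knockout (diamonds), with 95% Poisson intervals that cover counting error only. Psap is the highest in all, at 4420.1, 5026 and 7920.3 CPM, and the lanes lie close together for most members.

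Between the libraries the members did not move as one. Ratios below are of the knockout to both lanes together, as log2 of summed CPM with 1 CPM added, and intervals follow in parentheses. Of the 33 members with a mean of at least 10 CPM, 10 were at least 1.5-fold higher in the knockout, where 23.6% of all 7401 genes tested were, and 3 were at least 1.5-fold lower, where 12.5% of genes were. As a share these are 30.3% and 9.09% of members, near the background. Gpnmb, among the 10, was at 7.30 CPM in wild type and 12.8 CPM in the knockout, and passed the minimum only through the knockout. The median log2 ratio was 0.35 for members and 0.18 for all genes, with 23 members above 0 and 10 below, and 20 above and 13 below the median of all genes. Between the lanes, 0 of 32 members were at least 1.5-fold higher in lane 2 (all genes 0.171%) and 0 lower (all genes 6.67%), and member log2 ratios ran from -0.51 to 0.40.

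**Figure D2:**
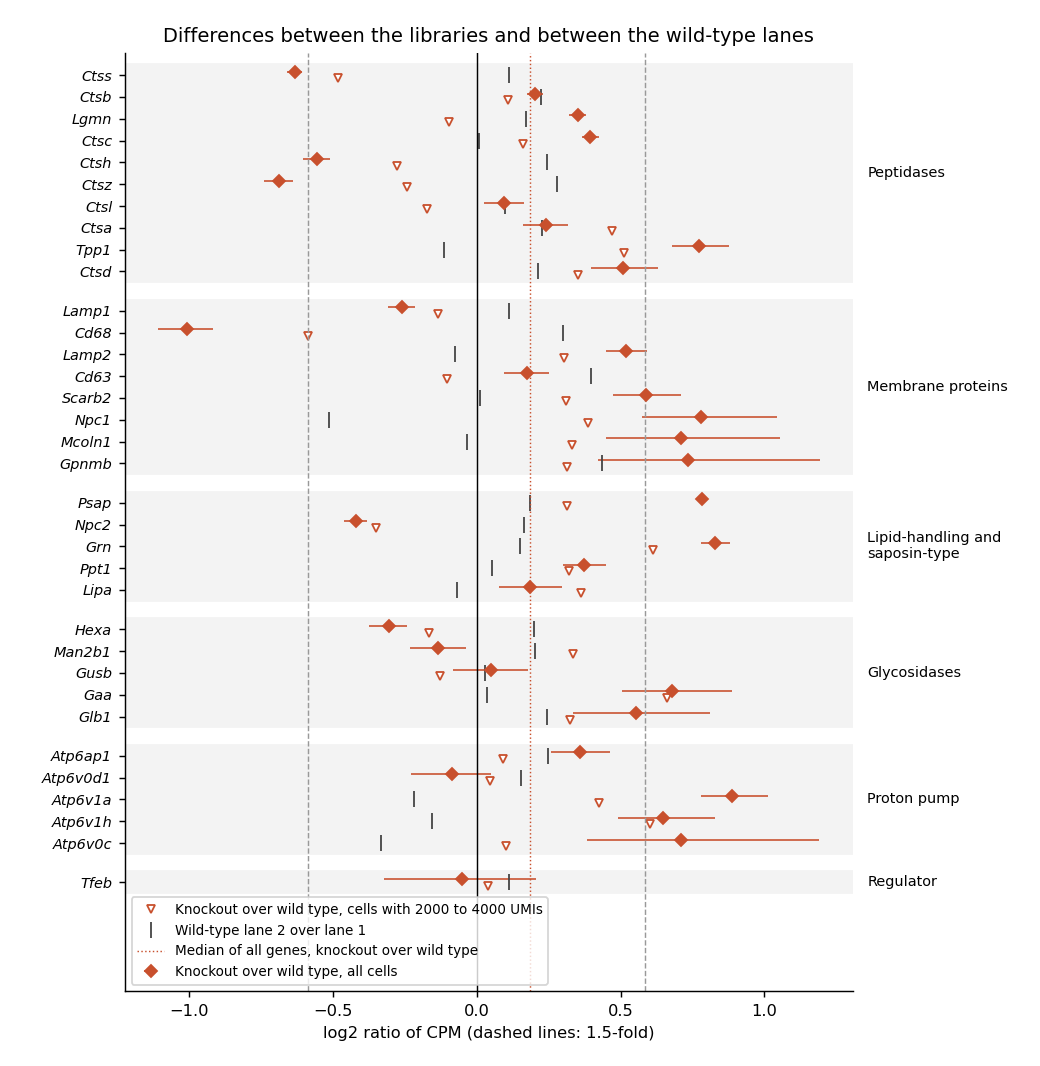
Knockout to wild-type log2 ratio of each member (filled diamonds, with 95% counting intervals), the same among cells with 2000 to 4000 UMIs (open triangles), and the ratio of wild-type lane 2 to lane 1 (bars). Members of 1 role lie on both sides of 0, from Cd68 at -1.01 to Atp6v1a at 0.89, and most triangles lie nearer to 0 than the diamonds.

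The peptidases split. Summed over the role they were at 9785 and 10881 CPM in the lanes and 9687 CPM in the knockout, below both lanes. With the 10 further peptidase genes the sum was at 10174.5 and 11272 CPM in the lanes and 10199.6 CPM in the knockout, between the lanes. Ctss, the cathepsin that cuts the invariant chain (chromosome 3, 95526786 to 95556403, GRCm38, GENCODE M21), was at 2933 and 3168 CPM in the lanes and 1938 CPM in the knockout. Its log2 ratio was -0.63 (-0.66 to -0.61), or 1.55-fold lower in the knockout. Ctsz, a carboxypeptidase, was at 834 and 1011 CPM in the lanes and 550.1 CPM in the knockout, a log2 ratio of -0.69 (-0.74 to -0.64). Ctsh, an aminopeptidase, was at 897 and 1064 CPM in the lanes and 644 CPM in the knockout, a log2 ratio of -0.56 (-0.60 to -0.51), short of 1.5-fold. These 3 were lower in the knockout than in either lane, and the remaining 7 peptidases had values above 0.

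Tpp1, a tripeptidyl peptidase, was the only peptidase at least 1.5-fold higher in the knockout. It was at 107 and 98.7 CPM in the lanes and 179 CPM in the knockout, a log2 ratio of 0.77 (0.68 to 0.88). Lgmn, the asparaginyl endopeptidase that processes other cathepsins, was at 1459 and 1644 CPM in the lanes and 1931 CPM in the knockout, a log2 ratio of 0.35 (0.32 to 0.38). Ctsb, an endopeptidase, was at 1557 and 1817 CPM in the lanes and 1880.3 CPM in the knockout, and Ctsc, which activates serine proteases, at 1415 and 1424 CPM in the lanes and 1865 CPM in the knockout. For Ctsb the distance between knockout and lane 2 was smaller than that between the lanes. The aspartic protease Ctsd had a log2 ratio of 0.51, the carboxypeptidase Ctsa 0.24 and the endopeptidase Ctsl 0.10. In GENCODE M21, genes on the opposite strand overlap exons of Ctsa, Ctsb, Ctsl, Ctsz, Lamp1, Npc1, Grn, Ppt1, Hexa and Atp6v1h, and whether the counting used strand is not given in the sources used here, so these counts are uncertain to that extent.

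Membrane proteins also split, and their sum was at 1590.4 and 1765 CPM in the lanes and 1567 CPM in the knockout, a log2 ratio of -0.07. With the 26 further membrane protein genes it was at 3464 and 3604 CPM in the lanes and 4240.2 CPM in the knockout, a log2 ratio of 0.27. Lamp1, a main protein of the lysosome wall, was at 754 and 815 CPM in the lanes and 644 CPM in the knockout, a log2 ratio of -0.26 (-0.31 to -0.21). Its relative Lamp2, also needed for chaperone-mediated autophagy, was at 236 and 224 CPM in the lanes and 334 CPM in the knockout, a log2 ratio of 0.52 (0.45 to 0.59). The knockout was below both lanes for Lamp1 and above both for Lamp2. Cd68, the mucin-like protein used to stain macrophages (chromosome 11, 69664213 to 69666153), had the lowest ratio of the list. It was at 273 and 337 CPM in the lanes and 145 CPM in the knockout, a log2 ratio of -1.01 (-1.11 to -0.92), or 2.01-fold lower in the knockout. After each cell was thinned to 1000 UMIs, Cd68 was seen in 22.7% of wild-type cells (21.2% to 24.3%, Clopper-Pearson) and 11.3% of knockout cells (10.1% to 12.6%). Thinning left out 1 wild-type and 196 knockout cells, and the shares without it were 68.7% and 27.0%. No lymphoid cell had a Cd68 UMI after thinning, which allows shares of up to 12.5% and 10.7%, from 24 and 28 cells with medians of 8353 and 2505 UMIs.

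The other membrane proteins were level or higher in the knockout. Scarb2, which carries glucocerebrosidase to the lysosome, was at 83.0 and 83.7 CPM in the lanes and 126 CPM in the knockout, a log2 ratio of 0.59 (0.48 to 0.71). Npc1, the exporter of lysosomal cholesterol, was at 21.2 and 14.6 CPM in the lanes and 33.7 CPM in the knockout, a log2 ratio of 0.78 (0.57 to 1.04). Its lanes were themselves apart, at a log2 ratio of -0.51 for lane 2 to lane 1. Mcoln1, a calcium channel of the lysosome, was at 12.1 and 11.8 CPM in the lanes and 20.2 CPM in the knockout, a log2 ratio of 0.71 (0.45 to 1.05). Gpnmb, a glycoprotein of lipid-laden macrophages, rested on 151 wild-type and 93 knockout UMIs, at 6.52 and 9.17 CPM in the lanes and 12.8 CPM in the knockout, a log2 ratio of 0.73 (0.42 to 1.19). Cd63, a tetraspanin of late endosomes, was at 204 and 269.7 CPM in the lanes and 252 CPM in the knockout, and the knockout lay between the lanes.

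The lumen proteins that handle lipids held the highest member. Psap (chromosome 10, 60277627 to 60302597) encodes prosaposin, which is cut into the saposins that help to degrade sphingolipids. It was at 4420.1 and 5026 CPM in the lanes and 7920.3 CPM in the knockout, a log2 ratio of 0.78 (0.77 to 0.80), or 1.72-fold higher in the knockout. By summed UMIs it ranked 22 among all genes in wild type and 8 in the knockout. Grn, the progranulin gene, whose product binds prosaposin, was at 394 and 437 CPM in the lanes and 723 CPM in the knockout, a log2 ratio of 0.83 (0.78 to 0.88). After thinning, Grn was seen in 34.5% of wild-type and 49.5% of knockout cells, against 4.17% of wild-type lymphoid cells and none of the knockout ones. Without thinning the Grn shares were 84.4% and 74.5%, in the order of the depths. Npc2, which hands cholesterol to Npc1, went the other way, at 1170.4 and 1312 CPM in the lanes and 906 CPM in the knockout, a log2 ratio of -0.42 (-0.46 to -0.38). Ppt1, which removes palmitate from proteins, had a log2 ratio of 0.37, and Lipa, the acid lipase, 0.19. The sum of the role was at 6323 and 7117 CPM in the lanes and 9972 CPM in the knockout, a log2 ratio of 0.60, the highest role ratio, and Psap alone made up most of its UMIs.

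Among the glycosidases, Hexa, a subunit of hexosaminidase, was at 393 and 452 CPM in the lanes and 332 CPM in the knockout, a log2 ratio of -0.31 (-0.37 to -0.24), with the knockout below both lanes. Gaa, the acid glucosidase that degrades glycogen, was at 29.9 and 30.6 CPM in the lanes and 48.7 CPM in the knockout, a log2 ratio of 0.68 (0.50 to 0.89), the only one of the role past 1.5-fold. Glb1, the beta-galactosidase gene, had a log2 ratio of 0.55, but Tmppe lies on the same strand over it and its count is uncertain. Man2b1, an alpha-mannosidase, and Gusb, the beta-glucuronidase gene, had -0.13 and 0.05. The sum of the role was at 688 and 777 CPM in the lanes and 653 CPM in the knockout, a log2 ratio of -0.13.

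The 5 listed proton pump genes summed to 318 and 332 CPM in the lanes and 443 CPM in the knockout, a log2 ratio of 0.46, but all 20 pump genes with the further ones summed to 2359.5 and 2414 CPM in the lanes and 2319 CPM in the knockout, a log2 ratio of -0.04. The 15 further pump genes, which carry more UMIs, summed to 2041 and 2082 CPM in the lanes and 1876 CPM in the knockout, a log2 ratio of -0.13. Of the 12 with at least 10 CPM, 6 were above 0 and 6 below, with a median of -0.02, and Atp6v1f, named after its values were seen, went from 322 and 354 CPM in the lanes to 207 CPM. Atp6v1a, the catalytic subunit, was at 75.8 and 65.0 CPM in the lanes and 135 CPM in the knockout, a log2 ratio of 0.89 (0.78 to 1.01), the highest of all members. Atp6v1h, a regulatory subunit of the same outer sector, was at 41.0 and 36.7 CPM in the lanes and 62.8 CPM in the knockout, a log2 ratio of 0.65 (0.49 to 0.83). For both, the lanes were closer to each other than either was to the knockout. The accessory protein Atp6ap1 had a log2 ratio of 0.36 and Atp6v0d1, of the membrane sector, -0.09. Atp6v0c, the proteolipid of that sector, was under the minimum of 10 CPM with 140 and 85 UMIs, and GENCODE M21 lists 2 pseudogenes of it. Tfeb, the regulator, was at 22.2 and 24.1 CPM in the lanes and 21.9 CPM in the knockout, a log2 ratio of -0.05 (-0.32 to 0.21), a difference that the depth could not show.

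The sizes of these ratios moved with depth and scaling. Among cells with 2000 to 4000 UMIs, 713 wild-type and 1051 knockout cells, 3 members were at least 1.5-fold higher (Grn, Gaa and Atp6v1h) and 1 lower (Cd68). There the log2 ratio of Psap was 0.31, that of Tpp1 0.51 and that of Ctsz -0.24, and Lgmn, Ctsl, Cd63 and Gusb were below 0, while Man2b1, Atp6v0d1 and Tfeb were above. With median-of-ratios size factors, which take out the median of all genes, the counts were 4 higher and 5 lower, and Ctsl, Cd63, Gusb and Lipa turned to values below 0. Of the 13 members past 1.5-fold, 2 (Cd68, lower, and Grn, higher) were so under each of 12 alternative settings. Both passed narrowly among cells with 2000 to 4000 UMIs, with log2 ratios of -0.58515 for Cd68 and 0.613 for Grn. The limit is 0.58496, so Cd68 lay on it there. Without cells with 5 or more haemoglobin UMIs, a choice made after the data were seen, the counts were 10 and 3, and among macrophage-gated cells 11 and 2.

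Several members changed with depth inside each library. Psap fell from 8228 CPM in wild-type cells with 1000 to 2000 UMIs to 4781 CPM in those with 4000 to 8000, and from 11798 to 5370.5 CPM in the knockout. Lgmn went from 2515 to 1602 CPM in wild type and from 2771 to 1419.6 CPM in the knockout. Cd68 went the opposite way, from 149.96 to 277 CPM and from 80.2 to 195 CPM. In the bands from 1000 to 8000 UMIs the knockout was above wild type for Psap and Grn and below it for Cd68, Ctsz and Ctsh, whereas for Lgmn it was above in the shallowest band and below in the others. In the 17 knockout cells with 8000 to 16000 UMIs Psap and Grn were lower than in wild type, at 2197 against 4067 CPM and 327 against 375 CPM.

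**Figure D3:**
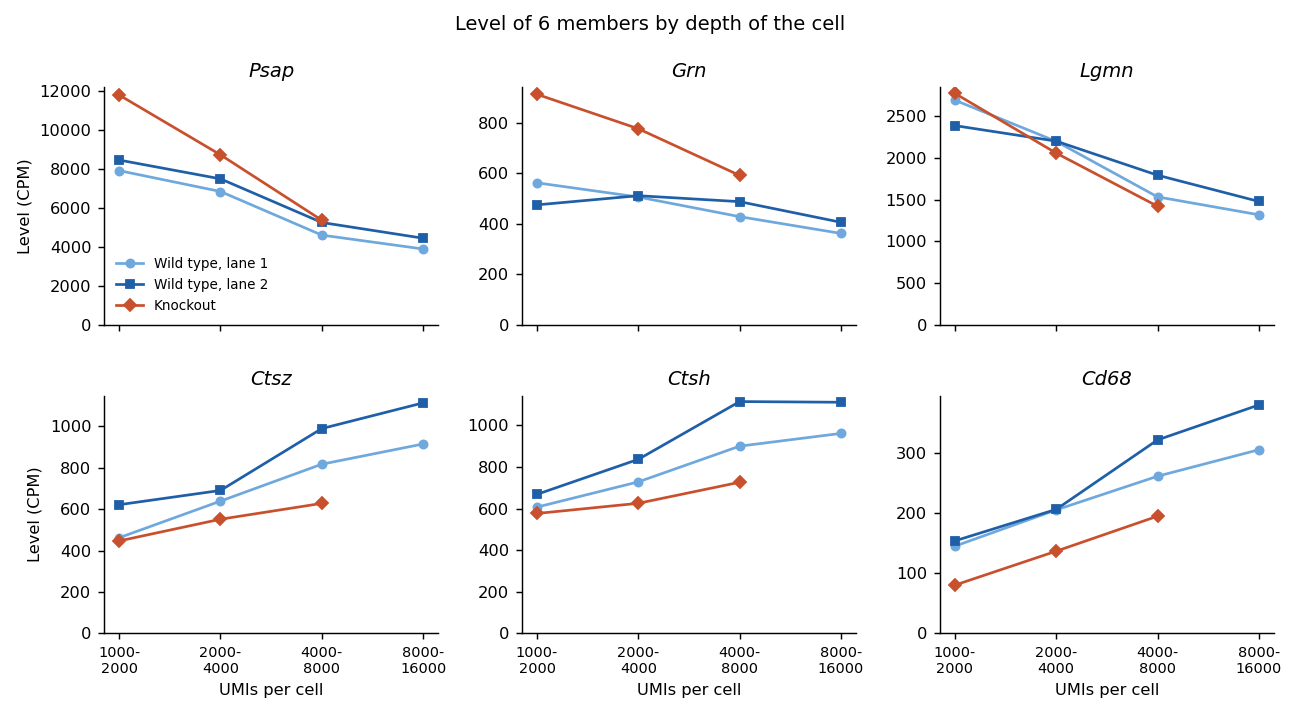
Level in CPM of 6 members in cells grouped by their UMIs, for the wild-type lanes and the knockout. The knockout band of 8000 to 16000 UMIs, with 17 cells, is left out. Over the bands drawn, Psap falls with depth in both libraries while Cd68, Ctsz and Ctsh rise, and the knockout lines for Cd68 stay under both lanes.

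Transcript length also moved with the ratios. The length of a gene was that of its longest transcript marked principal in GENCODE M21. Where none was marked, the longest coding transcript was used, or else the longest of any kind. Over the 1849 genes of the quartile with the shortest lengths, the median knockout to wild-type log2 ratio was -0.35, and in the quartiles of longer transcripts it was 0.10, 0.32 and 0.47. The shortest quartile held 6 members, Ctsh, Ctss, Ctsz, Cd63, Cd68 and Atp6v0d1, which include all those at least 1.5-fold lower. Between the lanes the medians of the quartiles were 0.09, 0.01, -0.13 and -0.32, a trend in the opposite direction. Less the median of its quartile, the log2 ratio was -0.66 for Cd68, -0.28 for Ctss, -0.34 for Ctsz, 0.69 for Psap, 0.73 for Grn and -0.74 for Npc2. On that scale 3 members (Psap, Grn and Mcoln1) were at least 1.5-fold above their quartile and 2 (Cd68 and Npc2) below. For Npc2, at -0.42 before centring, this rests on a length of 3299 bases, in the quartile with a median of 0.32. Which transcripts the cells used was not tested, and a shorter one could place a member in another quartile.

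The balance between roles was compared as a quotient of summed UMIs, which does not depend on the scaling of the library. Peptidases over membrane proteins, summed over the listed members, gave 6.15 (6.07 to 6.24) in lane 1, 6.17 (6.04 to 6.29) in lane 2 and 6.18 (6.06 to 6.30) in the knockout, intervals that overlap. They did not overlap after thinning to 1000 UMIs, with 6.07 (5.90 to 6.26) in wild type and 6.55 (6.33 to 6.78) in the knockout, nor in macrophage-gated cells, with 6.13 (6.05 to 6.21) and 6.39 (6.25 to 6.54). In cells with 2000 to 4000 UMIs the order was the other way, 6.46 (6.24 to 6.70) and 6.23 (6.04 to 6.42), with overlap. Peptidases over the 5 listed pump genes gave 30.7 and 32.8 in the lanes and 21.9 (21.1 to 22.7) in the knockout, and in cells with 2000 to 4000 UMIs 27.8 (25.9 to 29.8) in wild type and 21.9 (20.8 to 23.1) in the knockout.

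These quotients depended on which genes stood for a role. With the further peptidase, membrane and pump genes added, a choice made after the data were seen, peptidases over pump were at 4.31 and 4.67 in the lanes and 4.40 (4.33 to 4.47) in the knockout, which lay between the lanes. Peptidases over membrane proteins were then at 2.94 and 3.13 in the lanes and 2.41 (2.37 to 2.44) in the knockout, below both. Membrane proteins over pump changed direction. They went from 5.09 in wild type to 3.54 in the knockout over the listed members and from 1.48 to 1.83 with the further genes. The lower peptidase to pump quotient of the knockout was not seen over the longer list.

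**Figure D4:**
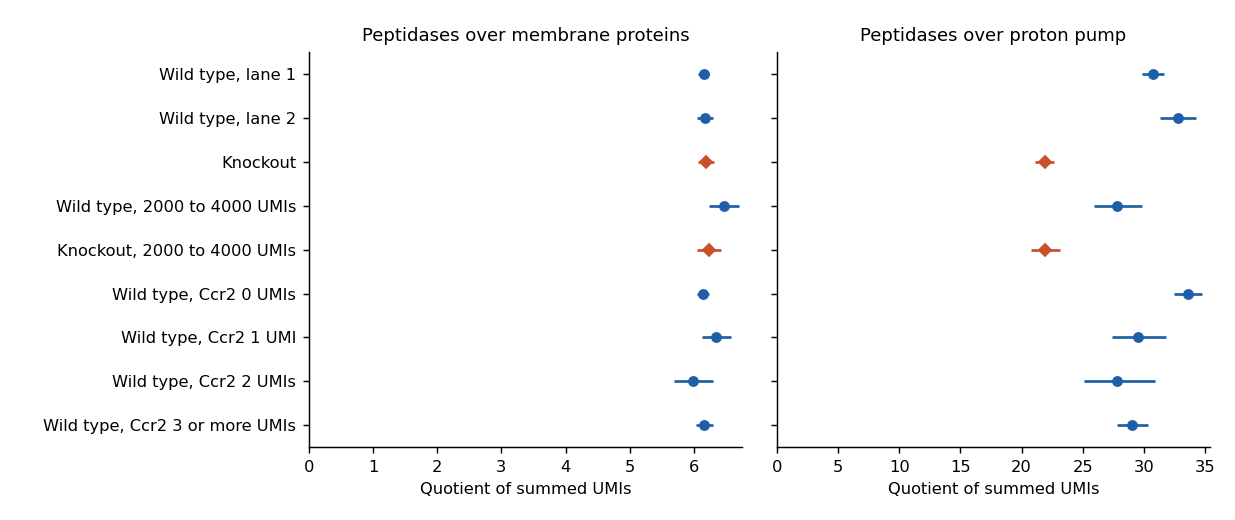
Quotients of summed UMIs of the listed members, peptidases over membrane proteins (left) and over proton pump (right), in sets of wild-type cells (circles) and knockout cells (diamonds), with 95% counting intervals. The left quotients lie between 5.98 and 6.46 in the sets drawn, and the right one, over the 5 listed pump genes, is lower in the knockout than in each wild-type set drawn.

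Within wild type, cells were grouped by their own Ccr2 UMIs, which the list does not contain. There were 1692 cells with 0, 322 with 1, 168 with 2 and 834 with 3 or more. These classes are ranges of a count and not cell types. Members made up 2.16%, 2.03%, 1.81% and 1.63% of UMIs, and thus less with each class. The lanes gave 2.09% to 1.59% and 2.32% to 1.73% from the class with 0 to that with 3 or more. Between these end classes 30 of 32 members were lower, where 62.0% of 7016 genes were. The median log2 ratio of members was -0.36 against -0.08 for all genes. At least 1.5-fold lower were 7 members (21.9%), where 7.08% of 7016 genes were, and 0 were at least 1.5-fold higher, where 3.32% of genes were. Over the steps from class to class 15 members fell at each, 0 rose at each and 17 were mixed, and 29 were lower in the end class in both lanes. The share of all genes that did so was not computed, so these step and lane counts have no background.

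**Figure D5:**
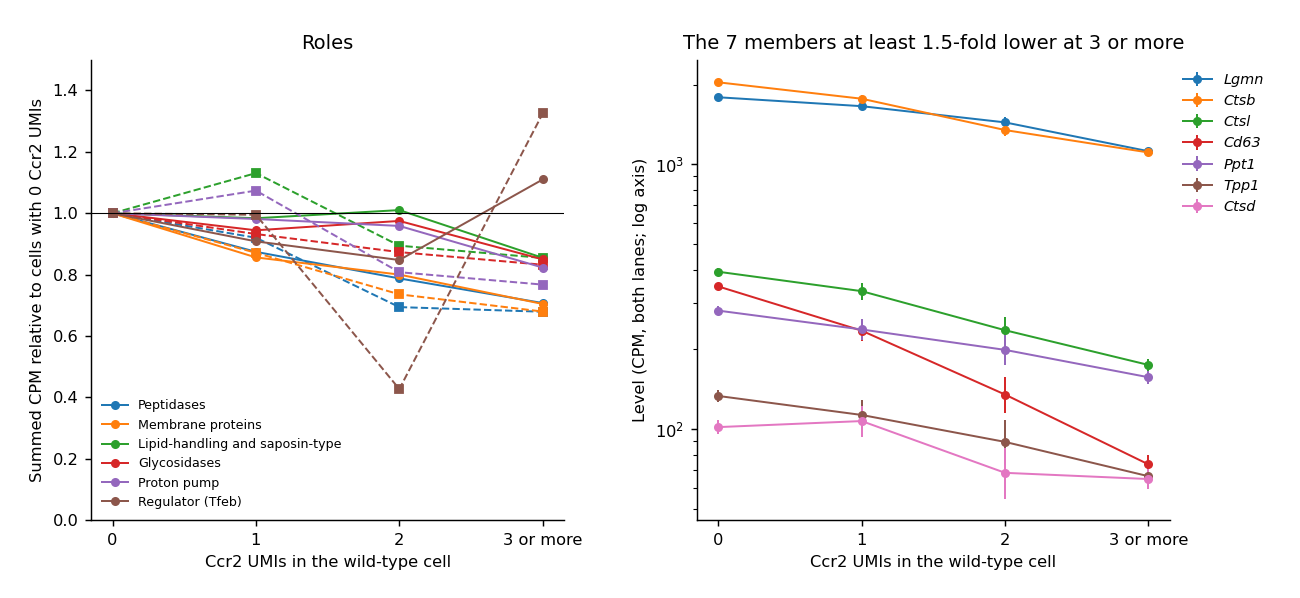
Left, summed CPM of each role in wild-type cells by their Ccr2 UMIs, relative to cells with 0, with lane 1 as circles and solid lines and lane 2 as squares and dashed lines. Right, level in CPM on a log axis with 95% Poisson intervals for the 7 members at least 1.5-fold lower in cells with 3 or more Ccr2 UMIs, where Cd63 has the steepest line, from 346 to 73.5 CPM.

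Cd63 had the widest range. It was at 346, 235, 135 and 73.5 CPM over the classes, a log2 ratio of the end classes of -2.22 (-2.37 to -2.10). In the lanes this ratio was -2.27 and -2.08. GENCODE M21 lists a pseudogene of Cd63, so reads shared with it may be missing from the count. Gpnmb, under the minimum of 10 CPM here, had 124 UMIs in the class with 0 and 13 in that with 3 or more, or 12.5 and 1.73 CPM. The other membrane proteins changed less, with Lamp1 at a log2 ratio of -0.32, Lamp2 at -0.22 and Cd68 at -0.31.

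All 10 peptidases were lower in the end class, 5 of them at least 1.5-fold. Ctsl was at 393, 332, 236 and 175 CPM over the classes, a log2 ratio of -1.16 (-1.26 to -1.08). Tpp1 was at 133, 113, 89.4 and 66.3 CPM over the classes, a log2 ratio of -0.997 (-1.16 to -0.86). Ctsb was at 2039, 1768, 1346 and 1108 CPM over the classes, a log2 ratio of -0.88 (-0.92 to -0.84). Each of these 3 fell at each step. Lgmn had a log2 ratio of -0.68 (-0.71 to -0.64) and Ctsd one of -0.64 (-0.81 to -0.49). Ctss, Ctsc and Ctsh, with -0.35, -0.35 and -0.26, changed least among the peptidases.

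Among the other roles Ppt1 alone passed 1.5-fold. Ppt1 was at 279.9, 238, 199 and 157 CPM over the classes, a log2 ratio of -0.83 (-0.94 to -0.74), and Grn had -0.56. Psap, at 4797, 5157, 4879 and 4141 CPM over the classes, was not lower until the last class, and Npc2 had a log2 ratio of -0.08. Glycosidases ran from -0.38 to -0.17 and tested pump genes from -0.44 to 0.08. Tfeb was at 21.9, 20.5, 16.02 and 25.6 CPM over the classes, a log2 ratio of 0.22 (-0.06 to 0.51), an interval that holds 0. Summed over a role, the log2 ratio was -0.52 for peptidases, -0.53 for membrane proteins, -0.23 for lipid-handling proteins, -0.25 for glycosidases and -0.31 for the pump. Peptidases over membrane proteins were at 6.14 and 6.16 in the end classes, and peptidases over pump went from 33.6 to 29.0.

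The classes differed in more than Ccr2. Median depth was 5303 UMIs in the class with 0 and 8614 in that with 3 or more. The 8 monocyte markers, which include Ccr2, summed to 167, 360.3, 786 and 1508 CPM, and the macrophage markers to 16802 and 12103 CPM in the end classes. Plasma cell genes went from 2599 to 185 CPM and erythroid markers from 1570.1 to 12.5 CPM. The part of these in the trend was not tested beyond the following values. Among cells with 4000 to 8000 UMIs (713 and 260 cells), a choice made after the data were seen, the log2 ratio was -2.36 for Cd63, -1.06 for Ctsl, -0.85 for Tpp1, -0.37 for Lgmn and 0.05 for Psap. Among macrophage-gated cells 8 members were at least 1.5-fold lower. In lane 1 alone there were 6 and in lane 2 alone 12. Shares of all genes were not computed for these sets of cells. Ctsb, Ctsl, Tpp1, Cd63 and Ppt1 were at least 1.5-fold lower under each of 13 alternative settings, and Lgmn and Ctsd were not.

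Knockout cells were also set against the 1692 wild-type cells without a Ccr2 UMI, a comparison that shares its wild-type cells with both earlier ones. Here 7 of 33 members were at least 1.5-fold higher in the knockout (all genes 20.5%) and 4 at least 1.5-fold lower (all genes 11.2%), again near the background. The median of members was 0.04 and that of all genes 0.16. For Psap the log2 ratio was 0.72 against these cells and 0.78 against all wild-type cells, and for Grn 0.63 and 0.83. For Cd68 it was -1.15 and -1.01, and for Ctss -0.79 and -0.63. Cd63, at -0.45 and 0.17, and Ctsl, at -0.30 and 0.10, were lower in the knockout than in wild-type cells without a Ccr2 UMI. Against all wild-type cells both were higher, but for Cd63 the knockout lay between the lanes. Neither comparison was matched for depth (medians of 2439 UMIs in the knockout, 5303 without a Ccr2 UMI and 6129 in all wild-type cells). Among cells with 2000 to 4000 UMIs both were lower in the knockout than in all wild-type cells, at -0.10 and -0.17. There the knockout had 252 CPM of Cd63 and 334 CPM of Ctsl, against 342 and 413 CPM in wild-type cells without a Ccr2 UMI.

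Cells with a UMI of Timd4, a receptor of long-lived resident gut macrophages, were called positive and compared with the others among macrophage-gated cells. In wild type (353 and 2165 cells) the 33 tested members had a median log2 ratio of positive to negative cells of 0.33, against 0.06 for all genes. In the knockout (673 and 1481 cells) the median of 34 members was 0.08 against -0.00358 for all genes. Cd63 was at 448 and 185 CPM in positive and negative wild-type cells and at 263 and 236 CPM in knockout cells. Ctsb was at 2227 and 1547 CPM in wild type and at 2136 and 1909 CPM in the knockout. The difference between the libraries in these ratios was not tested. Median depths of positive and negative cells were 5706 and 5583 UMIs in wild type and 2854 and 2066 in the knockout.

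From cell to cell, with macrophage-gated cells thinned to 3000 UMIs (2015 wild-type and 711 knockout cells), Psap had the highest variance relative to its mean. It had a median of 13 UMIs and a range from the 10th to the 90th percentile of 5 to 27 in wild type, and a median of 17 with 4 to 41 in the knockout. Its Fano factor, the variance over the mean, was 5.79 and 11.6, where that of Ctss was 2.15 and 2.27 and that of Lamp1 1.33 and 1.26. Psap also had the highest mean, 14.6 and 20.3 UMIs, against 9.10 and 5.99 for Ctss and 2.34 and 2.02 for Lamp1. The Fano factor can rise with the mean, so it does not rank members by their relative spread. Among the 11 members with a mean of at least 1 UMI per thinned cell in both libraries, 55 pairs had a median Spearman rho across cells of 0.12 in wild type and 0.09 in the knockout. Pairs of Lgmn with Psap (0.41 and 0.55) and Ctsb with Lgmn (0.41 and 0.35) were the highest in wild type, and Ctsb with Psap was at 0.22 and 0.44. The cells of a pair share a library, and most of these values are weak. Thinning fixed the number of UMIs drawn but not the original depth of the cell. Psap and Lgmn both fell with that depth in each library, and its part in their rho was not tested.

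Of 118 further lysosome genes, 92 had at least 10 CPM. Their median knockout to wild-type log2 ratio was 0.32, with 26 at least 1.5-fold higher and 8 lower, or 28.3% and 8.70%, near the 23.6% and 12.5% of all genes. Above 0 were 71 (77.2%), where 62.3% of all genes were. Highest were Slc15a3, a peptide and histidine transporter (1.58), Engase, a glycosidase (1.36), and Ctns, the cystine exporter (1.28). Slc15a3 was at 191 and 157 CPM in the lanes and 544 CPM in the knockout, and its log2 ratio among cells with 2000 to 4000 UMIs was 1.68. Lowest were Lyz2, the macrophage lysozyme (-1.45), and Lamtor5 (-1.27) and Lamtor2 (-1.04), parts of the Ragulator complex that docks mTORC1 on lysosomes. The cathepsin inhibitors Cstb and Cst3 had -0.98 and -0.33, with Cstb at 291 and 337 CPM in the lanes and 154 CPM in the knockout. Relatives of Tfeb had 0.65 (Tfe3), 0.44 (Mitf) and 0.22 (Tfec).

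Across the Ccr2 classes 83 of 91 tested further genes were lower in the end class, where 62.0% of all genes were. Their median log2 ratio was -0.30 against -0.08 for all genes. At least 1.5-fold lower were 17 (18.7%, all genes 7.08%) and 1 higher (1.099%, all genes 3.32%). All 12 tested pump genes and all 20 tested membrane proteins of this longer list were lower. The lowest were Acp5, the tartrate-resistant phosphatase (-1.59), Tfec (-1.21) and the cathepsin gene Ctsf (-1.14). Acp5 went from 899 to 297 CPM. The highest were Naaa, an acid amidase (1.11), Lyz2 (0.47) and Rraga, a Rag GTPase (0.29).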

How the data were processed

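The data are UMI counts of single macrophages from 1 wild-type and 1 Ccr2-/- library. The authors deposited them as whole-number counts per gene and cell, and the submitters' processing notes name Cell Ranger 3.0.1 and build mm10. The wild-type sample was split over 2 lanes, per the labels. The annotation, and whether the lanes were equalised in depth, are not given in the sources used here, and equalised lanes would look more alike.

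Counts were summed per library, lane or Ccr2 class and divided by the total to give CPM. Ratios are log2 of CPM plus 1, over genes with a mean of at least 10 CPM in the groups compared. A gene was counted as higher or lower past a 1.5-fold ratio, since no test between genotypes is possible with 1 library each. Intervals (95%) are exact Poisson for levels, conditional binomial for ratios and Clopper-Pearson for shares, and cover counting error only. The limit for a share of 0 is 3 counts of the total. Thinning drew a fixed number of UMIs from each cell without replacement. Scrublet in scanpy 1.11.5 scored each cell as a possible doublet. The highest scores of each lane were flagged, to an assumed rate of 0.8% per 1000 cells. The 43 wild-type and 55 knockout cells so flagged follow from that rate and were kept except in 1 alternative. Gene positions and transcript lengths are from GENCODE M21 and promoters from RefSeq, both on GRCm38. Scripts used Python 3.11.15 with numpy 2.4.6, scipy 1.17.1, pandas 2.3.3 and matplotlib 3.10.9, and were tested on simulated data.

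The members, lists, thresholds and alternatives were chosen with earlier results of these data known. Full values are given for the members with the highest level of a role and those past 1.5-fold, and other members are named with their ratio. Of the further lysosome genes, the 3 highest and 3 lowest ratios of each comparison, the cystatins Cst3 and Cstb and the regulators Tfe3, Mitf and Tfec are named. Alternatives changed the pseudocount, the minimum level, the scaling, the cell filter, doublets, the depth of cells, the lane and the cell gate.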

Additional observations from a re-analysis of the deposited data

How the results depend on the processing

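The log2 ratio of all members summed, knockout to wild type, was 0.21, and became 0.0149 with size factors, 0.0732 in cells with 2000 to 4000 UMIs, 0.25 after thinning to 1000 UMIs, 0.25 with lane 1 only, 0.10 with lane 2 only, 0.28 in macrophage-gated cells and 0.24 without haemoglobin-carrying cells. The member median of 0.35 became 0.16 with size factors, 0.23 with lane 2 only and 0.25 less the length quartile's median. The 10 members at least 1.5-fold higher became 4 with a pseudocount of 10 CPM, 4 with size factors, 3 in the 2000 to 4000 UMI cells and 3 after length centring, and the 3 lower became 5 with size factors and 1 in the 2000 to 4000 UMI cells. The log2 ratio of the peptidase to membrane quotient, 0.01, was -0.0532 in those cells, 0.11 after thinning and 0.0597 in macrophage-gated cells, and that of the pump quotient, -0.52, was -0.34 in those cells and -0.58 with lane 2 only. With the further genes of each role added these became -0.32 and -0.00665. For Ccr2 classes the summed ratio of -0.41 became -0.33 with size factors, -0.42 with a stricter cell filter, -0.27 in 2000 to 4000 UMI cells, -0.30 in 4000 to 8000 UMI cells, -0.39 in lane 1, -0.43 in lane 2, -0.44 in macrophage-gated cells and -0.37 with class and level thinned to 3000 UMIs. Its median of -0.36 became -0.58 in 2000 to 4000 UMI cells and -0.46 in lane 2, and the 7 members at least 1.5-fold lower became 16 in 2000 to 4000 UMI cells, 13 after thinning to 1000 UMIs, 12 in lane 2 and 12 with thinning to 3000 UMIs. For the counts under alternatives the share of all genes was not computed. The cause of these shifts was not tested. Size factors move the median of all genes by 0.18 on the log2 scale. Of 33 members 23 kept their direction between libraries under all 12 alternatives, and of 32 members 24 did so between Ccr2 classes under all 13. The 4000 to 8000 UMI, length, haemoglobin and further-gene alternatives were chosen after seeing the data. No paired analysis was possible because each genotype has 1 library. Genotype, mouse source, library and depth cannot be told apart, and members with few UMIs (Gpnmb, Atp6v0c, Mcoln1, Npc1, Tfeb) carry wide counting intervals.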
